A study of Mus musculus with 25 samples.

Results

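The genes followed here encode transcription factors of the epidermis: Gata3, Klf4, Tfap2a, Tfap2b, Tfap2c, Irx4 and Dlx3. They were taken by name, as 7 of the 24061 genes in the count table, and were read in all 21 RNA libraries and, for open chromatin, in 4 peak lists within each gene and 20 kb on either side. The study sorted stem cells of mouse back skin and tumour cells to ask how lineage identity behaves in wounds and in squamous cell carcinoma. Its RNA libraries fall into 3 sets, named CL, BK and DS in the sample titles, all from female B6 mice and, for skin, at postnatal day 60.

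In each set, hair follicle stem cells (HFSC) were sorted as lineage negative, integrin alpha 6 high, CD34+ and Sca1-, and epidermal stem cells (EpdSC) as CD34- and Sca1+. CL held 2 libraries of each, plus 2 of the wounded HFSC lineage, which were YFP+ cells of Sox9CreER;R26-YFP mice, and 2 of wounded EpdSC, the YFP- cells of such mice. The YFP mark depends on where and when Sox9CreER was active, and the wounded cells were not gated on CD34 or Sca1, so wound and gate changed together. BK held 2 HFSC, 2 EpdSC and 1 wounded EpdSC library, the last sorted on lineage and integrin alpha 6 alone. DS held 1 HFSC and 1 EpdSC library labelled Tbr and 6 libraries of GFP+ cells from grafted tumours, with HRas, with HRas and TbrKO, or with TbrKO alone, each split into high and low integrin alpha 6. The labels do not spell out Tbr, and protocol labels of some unwounded samples also mention a wound biopsy. The ATAC samples were pools from female mice of mixed CD1 and B6 strain: HFSC and EpdSC of back skin at postnatal day 50, wound cells that were integrin alpha 6 and Sca1 positive, and GFP+ cells of HRas-induced carcinoma.

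All 7 genes encode DNA-binding proteins. The epidermis renews from a basal layer whose cells stop dividing, move outward and cornify, while the follicle keeps a stem cell pool in its bulge. GATA3 is known in skin for the inner root sheath and the lipid barrier, KLF4 for the cornified barrier, and the AP-2 proteins (Tfap2a, Tfap2b, Tfap2c) for keratinocyte gene expression, with partly shared functions since they bind the same sites as dimers. IRX4 belongs to the Iroquois homeobox family and is best known in heart ventricles. DLX3, a Distal-less homeobox protein, is needed for hair formation.

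The promoter windows below, 250 bases before to 50 after a start site, were taken from RefSeq (GRCm38.p6) for genes where an ATAC peak reached the window. Promoter entries were found for 5 of the 7 genes, with none for Tfap2c and Dlx3, whereas gene spans were found for all 7. Gata3, at chr2:9878551-9878850 on the minus strand, had a peak over this window in the HFSC, wound and tumour lists. Irx4, at chr13:73260247-73260546 on the plus strand, had one in the HFSC list alone. The more downstream of the 2 Tfap2a start sites, at chr13:40733746-40734045 on the minus strand, had one in all 4 lists. Sequences run 5′ to 3′ in the direction of transcription, and capitals mark matches to short motifs of the factors' own families.
Gata3 promoter: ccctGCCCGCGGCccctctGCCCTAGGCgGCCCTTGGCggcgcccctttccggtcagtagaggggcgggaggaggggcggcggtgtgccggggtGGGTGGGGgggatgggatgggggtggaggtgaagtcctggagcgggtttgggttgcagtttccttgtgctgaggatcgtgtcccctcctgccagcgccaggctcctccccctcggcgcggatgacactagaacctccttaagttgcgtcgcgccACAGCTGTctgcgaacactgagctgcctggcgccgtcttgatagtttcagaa
Irx4 promoter: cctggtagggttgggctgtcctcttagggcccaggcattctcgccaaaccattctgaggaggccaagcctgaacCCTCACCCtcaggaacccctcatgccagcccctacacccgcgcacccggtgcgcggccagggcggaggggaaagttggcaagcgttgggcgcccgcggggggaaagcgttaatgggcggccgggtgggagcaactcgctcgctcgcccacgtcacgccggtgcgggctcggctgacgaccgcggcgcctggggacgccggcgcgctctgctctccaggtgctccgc
Tfap2a downstream promoter: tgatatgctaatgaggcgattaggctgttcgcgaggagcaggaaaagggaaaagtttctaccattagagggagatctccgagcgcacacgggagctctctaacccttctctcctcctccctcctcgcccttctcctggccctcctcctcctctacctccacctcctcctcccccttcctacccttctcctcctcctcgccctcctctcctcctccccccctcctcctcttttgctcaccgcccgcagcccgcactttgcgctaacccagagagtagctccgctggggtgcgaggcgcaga
The motifs were GCCNNNGGC for AP-2, AGATAA for GATA factors, GGGTGNGG for KLF, TAATT for Dlx and ACANNTGT for Iroquois, searched on both strands. They were found in 16.5%, 11.4%, 16.4%, 27.3% and 7.4% of 27025 mouse promoter windows of the same length. Gata3 held 3 AP-2 matches, at -246, -231 and -221 from the start site, 1 KLF match at -156 and 1 Iroquois match at -2. Irx4 held 1 KLF match at -176, and the Tfap2a window held none of the 5. No match overlapped another. A match is a description of these letters only.

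Library totals ran from 14216472 to 36425082 counts. The labels do not tie the libraries of a group to different animals, so each p-value reflects only how much these libraries vary, and that variation could be technical. The sort was visible in its markers: Cd34 lay between 429.5 and 3098 CPM (the count scaled to the size of the library) in the 5 HFSC libraries and between 3.37 and 17.5 in the 5 EpdSC libraries, and Lhx2 between 176 and 510.2 against 1.55 and 7.65. In the wounded HFSC lineage Cd34 was at 2.32 and 2.46 and Lhx2 at 4.82 and 4.02, and Sca1 (Ly6a) at 752 and 671. The basal keratin gene Krt5 had a mean of 10490 to 40160 CPM in each of the 15 groups. Markers of other cells also differed: the summed level of 8 myeloid and Langerhans genes was 7261 and 5359 in wounded EpdSC A and B of CL against 42.4 to 121.4 in unwounded EpdSC, and 8 fibroblast genes summed to 1452 to 13300 in tumours against 79.0 to 1657 in skin. Most of the skin sum was Sparc, with group means of 79.35 to 1418 CPM in skin and 587.9 to 2460 in tumours. A list of 12 early response genes that rise when tissue is dissociated (Fos, Jun, Egr1 and others) summed to 5049 to 50840 in unwounded skin, 607 to 1280 in CL wounded libraries, 12300 in the BK wounded library and 4780 to 19830 in tumours. In bulk libraries, fewer cells of a type and less RNA per cell cannot be told apart.

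The label epidermal held for part of the group only. In unwounded skin Gata3, and in BK also Tfap2c, was higher in EpdSC, whereas Irx4 and Dlx3, and in BK also Tfap2b, were higher in the follicle stem cells. After wounding 3 genes (Gata3, Klf4 and Tfap2b) fell in both lineages, Irx4 moved in opposite directions in the 2 lineages, and Tfap2a and Tfap2c did not pass the test. In HRas-bearing tumours, with both gates pooled, all 7 were lower than in the pooled Tbr HFSC and EpdSC libraries. Not all of these calls held with the high integrin tumours alone. The plot of levels in all libraries shows Tfap2a with the narrowest range (3.03-fold from the lowest to the highest library) and Tfap2b with the widest (607-fold).

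**Figure D1:**
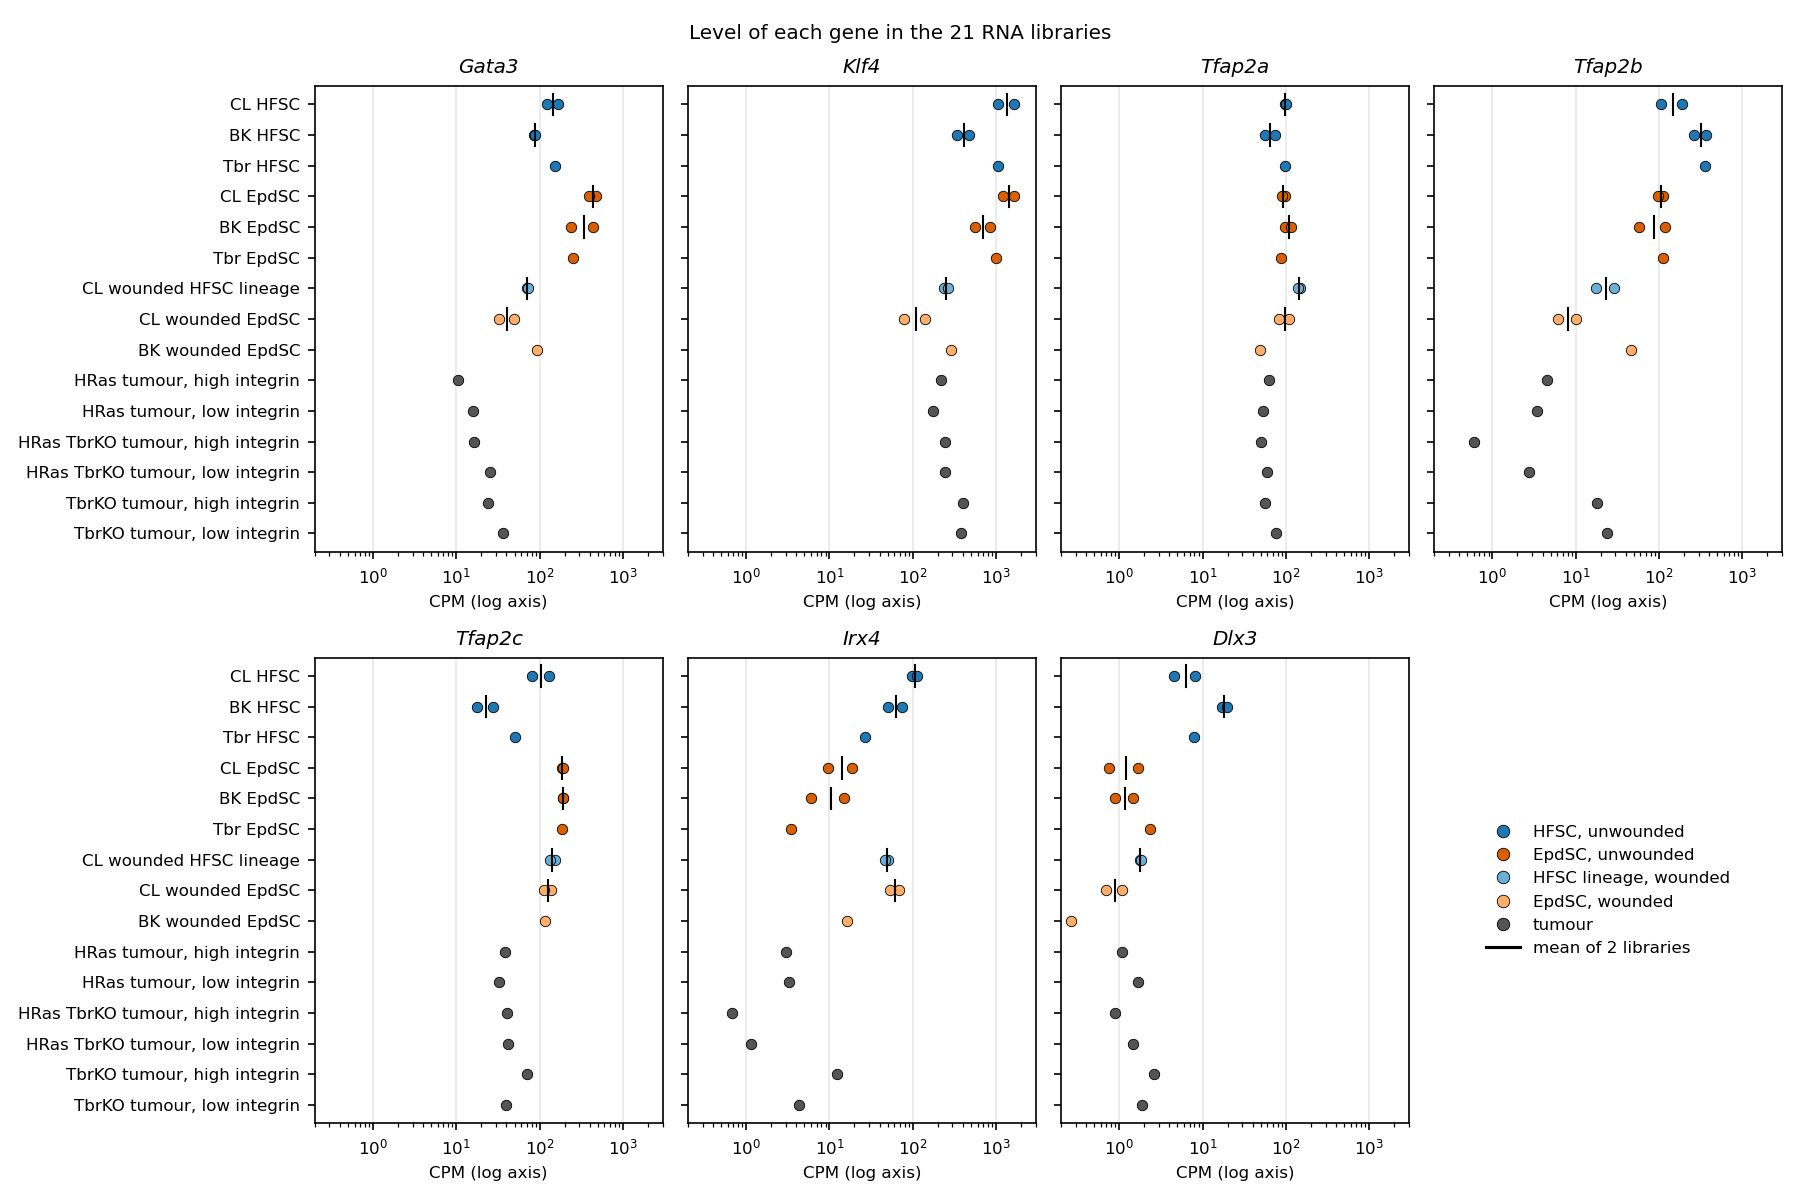
Level of each gene in CPM on a log axis, 1 point per library and 1 row per group, with a black line at the mean where a group has 2 libraries. Tfap2b runs from 0.608 in the HRas TbrKO tumour library with high integrin to 369 in a BK HFSC library, and Tfap2a from 49.1 to 149.

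Counts of called genes were read against the share of all genes called in the same comparison (edgeR's quasi-likelihood test, Benjamini-Hochberg adjusted p below 0.05). Between HFSC and EpdSC of CL, 2 of 7 were higher in HFSC and 1 lower, where 10.8% of 14831 genes were called, 7.19% higher and 3.63% lower. In BK 3 were higher in HFSC and 2 lower, where 14.4% of 14663 genes were called, 7.91% higher and 6.47% lower. In the wounded HFSC lineage against HFSC 5 of 7 were called, all lower, with 46.1% of all genes called, 21.4% higher and 24.7% lower. In wounded against unwounded EpdSC 1 was higher and 3 lower, and this share of the 7 is near the 58.4% of all genes (30.2% higher, 28.2% lower).

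The wound responses of the lineages differed for 2 genes, 1 in each direction, where 15.8% of all genes were called (5.31% with the more positive change in the HFSC lineage, 10.5% with the more negative). Between the wounded groups 2 of 7 were called, both higher in the HFSC lineage, with 19.2% of all genes called, 6.8% higher and 12.4% lower. Against unwounded EpdSC the wounded HFSC lineage had 2 genes higher and 3 lower, with 43.7% of all genes called, 21.5% higher and 22.2% lower.

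In the tumour set all 7 genes were lower in HRas-bearing tumours than in the Tbr skin stem cells, where 52.3% of 15471 genes were called, 27% higher and 25.4% lower. Their median log2 difference was -2.23, beside 0.07 over all genes. In TbrKO tumours 3 of 7 were lower than in the same skin libraries (24.5% of genes called, 13.9% higher and 10.6% lower). Between the tumours 4 of 7 were higher in TbrKO than in HRas-bearing libraries, where 41.8% of 15113 genes were called, 21.2% higher and 20.7% lower. None passed between high and low integrin alpha 6 (3.15% of genes called, 0.152% higher and 3% lower), where 1 of the 7 had an unadjusted p below 0.05 and DESeq2 called 1, Gata3 in both cases. The comparisons of HRas-bearing and of TbrKO tumours with skin share the skin libraries, and the CL comparisons share libraries with each other. Each tumour genotype had 1 library per gate, so no tumour test measures the spread between libraries of the same genotype and gate.

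By group mean, Gata3 was highest in EpdSC, lower in HFSC, lower still in the CL wounds and lowest in tumours, where 1 TbrKO library (36.7 CPM) lay above CL wounded EpdSC A (32.7). The gene lies on chromosome 2, and its product acts in T cells as well as in skin. In CL its level was 475 and 395 CPM in EpdSC A and B and 121.5 and 166.5 in HFSC A and B. In BK it was 237 and 439.5 in EpdSC and 86.6 and 88.2 in HFSC, and in the Tbr libraries 250.1 and 154. Every EpdSC library lay above every HFSC library. The difference HFSC minus EpdSC was -1.60 ± 0.27 (log2, SE) in CL, 3.03-fold lower, with an adjusted p of 0.00872, and -1.97 ± 0.40 in BK with an adjusted p of 0.0255. The CL call was lost without CL HFSC A or CL EpdSC A (adjusted p up to 0.0838) and the BK call without BK HFSC 1 or 2 (up to 0.176), while the sign stayed. T cell markers summed to 61.0 to 338.7 CPM in EpdSC and 12.7 to 57.5 in HFSC. Most of the EpdSC sum was Thy1, with means of 68.2 in CL and 223.7 in BK. Over the 9 T cell genes the median of HFSC minus EpdSC was 1.19 in CL and -0.7 in BK, beside -0.02 and -0.03 over all genes. The part of T cells in the Gata3 difference was not tested.

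Gata3 was lower in the wounded cells of both lineages, and the HFSC lineage then had the higher level, by a difference that did not pass (0.79 ± 0.27, adjusted p 0.0649). It passed with DESeq2 (0.037), with no filter on low counts (0.0481) and without CL wounded EpdSC B (0.00924). It stood at 70.0 and 73.1 CPM in the wounded HFSC lineage and at 32.7 and 49.6 in wounded EpdSC of CL, with 94.2 in the single BK wounded library. All wounded libraries except that of BK lay below every unwounded library. The fall was -1.02 ± 0.27 in the HFSC lineage (adjusted p 0.0168, lost without CL HFSC B or either wounded library of the lineage, up to 0.107) and -3.41 ± 0.29 in EpdSC, 10.7-fold (adjusted p 9.69e-05). The responses differed by 2.39 ± 0.38 on the log2 scale, with an adjusted p of 0.00678. In CL wounded EpdSC, where Gata3 was at its lowest skin level, T cell markers summed to 266 and 357 CPM. Their part in the Gata3 values was not tested.

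In tumours Gata3 ranged from 10.5 CPM in the HRas library with high integrin to 36.7 in the TbrKO library with low integrin. No tumour library overlapped the Tbr skin libraries. HRas-bearing tumours lay 12-fold below skin (-3.58 ± 0.35, adjusted p 0.000359) and TbrKO tumours 6.79-fold below (-2.76 ± 0.44, adjusted p 0.00656), which became 0.0505 with the high integrin tumours alone. TbrKO exceeded HRas-bearing tumours by 0.85 ± 0.14 (adjusted p 0.00812, up to 0.0519 without either HRas library). Within each genotype the library with low integrin was higher: 15.9 against 10.5 in HRas, 25.1 against 16.4 in HRas TbrKO and 36.7 against 23.9 in TbrKO. This difference of -0.58 ± 0.13 had an adjusted p of 0.0845 and passed in the 4 HRas-bearing libraries alone (0.0349). With either TbrKO library left out, the other had its own genotype term. The gate difference then rested on the same 4 HRas-bearing libraries, so those fits are no separate support. The libraries with low integrin also held more fibroblast RNA, with 7 of 8 fibroblast genes called lower in high integrin. So were 3 of the 7 T cell genes tested (median -1.84) and 5 of 8 myeloid genes (median -1.67), beside a median of 0.05 over all genes. The part of such cells in the Gata3 difference was not tested.

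Klf4 fell steeply in the CL wounds and was lower in tumours than in the Tbr skin libraries. Across sets the levels overlapped, with BK HFSC 2 below both TbrKO tumour libraries. It gave 1050 and 1649 CPM in CL HFSC A and B, 1645 and 1225 in CL EpdSC, 479 and 341.5 in BK HFSC and 554 and 851 in BK EpdSC, with 1057 and 1010 in the Tbr pair. The lineages overlapped in CL, and in BK both EpdSC libraries were above both HFSC libraries without passing the test (-0.09 ± 0.34 in CL and -0.79 ± 0.37 in BK, adjusted p 0.931 and 0.212). Of the alternatives run, the BK difference passed when BK EpdSC 1 was left out (lowest adjusted p 0.0171).

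In wounds Klf4 was at 241 and 265 CPM in the HFSC lineage, at 77.7 and 139.7 in CL EpdSC and at 289 in the BK library. No CL wounded library reached any unwounded library of any set. The fall was 5.38-fold in the HFSC lineage (-2.43 ± 0.36, adjusted p 0.0014) and 13.3-fold in EpdSC (-3.73 ± 0.39, adjusted p 0.000205). The difference of the responses, 1.3 ± 0.49, did not pass (adjusted p 0.099). The wounded HFSC lineage exceeded wounded EpdSC by 1.21 ± 0.35 with an adjusted p of 0.0488, which was lost with the per-library count tables (0.057) and without CL wounded EpdSC A or either library of the wounded lineage (up to 0.223). The early response genes of dissociation fell with Klf4: 12 of 12 in the HFSC lineage and 11 of 12 in EpdSC were lower. Of all genes 24.7% and 28.2% were lower. The dissociation genes were also lower in BK HFSC than in BK EpdSC (10 of 12, beside 6.47% of all genes). Their part in the Klf4 values was not tested.

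Tumour levels of Klf4 ran from 176 in HRas with low integrin to 405 in TbrKO with high integrin, below both Tbr skin libraries. The difference from skin was -2.23 ± 0.19 in HRas-bearing tumours (adjusted p 0.00023) and -1.43 ± 0.23 in TbrKO tumours (adjusted p 0.00683, 0.092 with high integrin tumours alone). TbrKO tumours were 1.76-fold above HRas-bearing ones (0.82 ± 0.14, adjusted p 0.00964, up to 0.0652 without the HRas library with low integrin). In that comparison 9 of 12 dissociation genes were also higher in TbrKO, where 21.2% of all genes were higher. Against skin 10 of 12 were lower in HRas-bearing tumours and 3 of 12 in TbrKO tumours, beside 25.4% and 10.6% of all genes. The part of the dissociation genes in the Klf4 values was not tested.

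**Figure D2:**
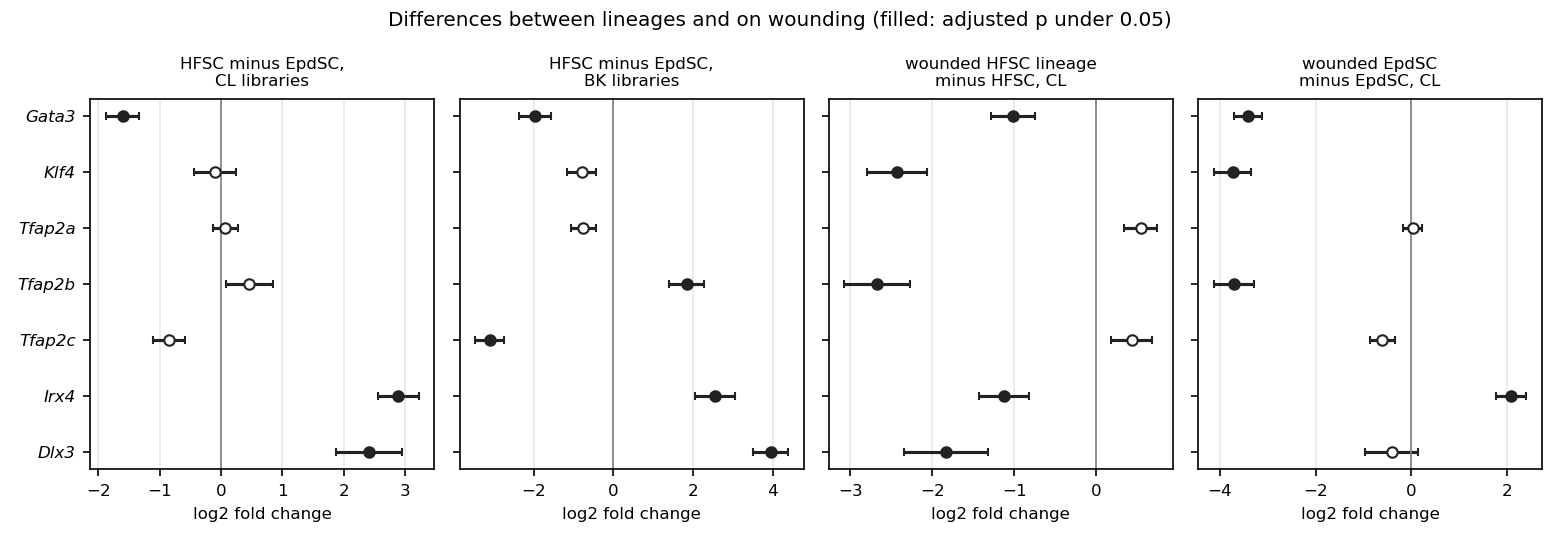
Log2 fold change with its standard error (bars) for the 7 genes in 4 comparisons of skin libraries, with filled points for an adjusted p below 0.05. Irx4 lies right of 0 in wounded EpdSC (2.08) and left of 0 in the wounded HFSC lineage (-1.13), while Klf4 and Tfap2b lie left in both.

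Of the AP-2 genes, Tfap2a was the steadiest of the 7. It stood at 98.9 and 99.1 CPM in CL HFSC and 98.3 and 88.95 in CL EpdSC, at 73.4 and 55.55 in BK HFSC and 98.8 and 117 in BK EpdSC, and at 98.1 and 88.05 in the Tbr pair. Wounded HFSC lineage libraries were the highest of all, at 149 and 141, wounded EpdSC had 83.0 and 110, the BK wounded library 49.1 and tumours 50.1 to 75.6. Neither lineage comparison passed (0.07 ± 0.20 in CL, -0.75 ± 0.31 in BK). The difference of the wounded HFSC lineage was 0.54 ± 0.20 against HFSC (adjusted p 0.0592) and 0.61 ± 0.20 against EpdSC (adjusted p 0.0399). The first passed with DESeq2, with RLE size factors and in the per-library count tables (lowest adjusted p 0.0231), and the second was lost with the replicate block (0.0567), with no filter on low counts (0.0596) and without any 1 of the 4 libraries compared (up to 0.212). HRas-bearing tumours were 1.67-fold below the Tbr skin libraries (-0.74 ± 0.17, adjusted p 0.00911, 0.0595 with high integrin tumours alone).

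Tfap2b, whose AP-2 protein is also known in neural crest and kidney, had its highest levels in HFSC and its lowest in HRas-bearing tumours. BK HFSC had 369 and 265.5 CPM and BK EpdSC 56.8 and 119, CL HFSC 189 and 105 and CL EpdSC 112 and 98.6, and the Tbr libraries 354 in HFSC and 112 in EpdSC. In BK and in the Tbr pair HFSC lay above EpdSC, and in CL the groups overlapped. The difference passed in BK (1.84 ± 0.45, adjusted p 0.0452, up to 0.207 without BK HFSC 1 or 2) and not in CL (0.46 ± 0.38, adjusted p 0.568). With both sets in 1 fit and set as a block it was 1.17 and passed. Melanocyte markers summed to 61.8 to 185.5 CPM in HFSC and 9.09 to 22.0 in EpdSC. Most of the HFSC sum was Mitf, with means of 69.5 in CL, 87.25 in BK and 111.3 in Tbr. Of the melanocyte genes tested, 4 of 7 in CL and 4 of 8 in BK were called higher in HFSC and 0 lower. Of all genes 7.19% and 7.91% were higher. The mean of Pmel was lower in CL HFSC (3.16) than in CL EpdSC (5.65). AP-2 genes are also active in melanocytes, and the part of such cells was not tested.

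In wounds Tfap2b fell to 17.4 and 28.7 CPM in the HFSC lineage and to 6.07 and 10.2 in CL EpdSC, with 45.8 in the BK library. All 5 wounded libraries were below all 10 unwounded ones. The fall was 6.37-fold in the HFSC lineage (-2.67 ± 0.40, adjusted p 0.00142) and 13.1-fold in EpdSC (-3.71 ± 0.42, adjusted p 0.000319). The difference of the responses did not pass (1.04 ± 0.54, adjusted p 0.189). The wounded HFSC lineage kept more Tfap2b RNA than wounded EpdSC, by 1.5 ± 0.39 (adjusted p 0.0411). That call was lost with the replicate block (0.0521) and without CL wounded EpdSC A or either library of the wounded lineage (up to 0.237).

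Tfap2b separated the TbrKO from the HRas-bearing tumour libraries. The HRas libraries had 4.48 CPM with high and 3.4 with low integrin, the HRas TbrKO libraries 0.608 and 2.79, and the TbrKO libraries 18.2 and 23.7. The HRas-bearing and TbrKO ranges did not overlap, and the lowest library rests on 17 counts. TbrKO tumours were 8.18-fold above HRas-bearing ones (3.03 ± 0.47, adjusted p 0.00741). HRas-bearing tumours lay 82.5-fold below skin (-6.37 ± 0.71, adjusted p 0.000547), the greatest difference among the 7 genes in any comparison. TbrKO tumours were 11.3-fold below skin (-3.50 ± 0.83, adjusted p 0.0231), a call lost without either TbrKO library or the Tbr HFSC library (up to 0.117) and with high integrin tumours alone (0.196).

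Tfap2c, an AP-2 gene active early in surface ectoderm, had nearly the same level in every EpdSC library. The 5 EpdSC libraries read 187, 189, 192, 193 and 184 CPM in CL A and B, BK 1 and 2 and Tbr. HFSC libraries varied, with 80.2 and 129 in CL, 17.8 and 27.3 in BK and 51.2 in Tbr, and none reached EpdSC. BK HFSC were 8.56-fold below EpdSC (-3.10 ± 0.37, adjusted p 0.00571), and the CL difference of -0.85 ± 0.25 did not pass (adjusted p 0.0793) but did with DESeq2, without CL HFSC B and in the joint fit of CL and BK (lowest adjusted p 0.0189). Wounded libraries were between 113.5 and 152 in both lineages and sets, below every EpdSC library and, for CL, within or above the range of HFSC. No wound response passed (0.43 ± 0.25 in the HFSC lineage, -0.60 ± 0.25 in EpdSC), except that the first did without CL HFSC B (0.84, adjusted p 0.0369). Tumours had 32.3 to 71.6, and HRas-bearing ones were below the Tbr skin pair by -1.62 ± 0.45 (adjusted p 0.018, lost without the Tbr EpdSC library and with high integrin tumours alone, up to 0.329).

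Irx4 marked the follicle stem cells and was the gene that rose in wounded EpdSC. HFSC had 98.2 and 112 CPM in CL, 75.1 and 50.3 in BK and 26.7 in Tbr, and EpdSC 9.55 and 18.8, 15.1 and 6.03, and 3.45. All HFSC libraries lay above all EpdSC libraries. HFSC exceeded EpdSC 7.42-fold in CL (2.89 ± 0.33, adjusted p 0.00149) and 5.86-fold in BK (2.55 ± 0.50, adjusted p 0.0231).

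After wounding the Irx4 levels of the 2 lineages lay closer together than before. The wounded HFSC lineage had 50.9 and 46.2 CPM and wounded EpdSC of CL 67.7 and 53.3, while the BK wounded library had 16.2. The BK wounded library lay just above the higher BK EpdSC library, at 15.1, and below all CL wounded libraries. The change was -1.13 ± 0.31 in the HFSC lineage (adjusted p 0.0192, lost without any 1 of its 4 libraries, up to 0.121) and 2.08 ± 0.32 in EpdSC (4.24-fold, adjusted p 0.00119). The responses differed by -3.21 ± 0.44 with an adjusted p of 0.00392. With the BK libraries added to the EpdSC comparison and set as a block, the difference was 1.53 and did not pass (adjusted p 0.0871). Between the wounded groups of CL the difference of -0.32 ± 0.31 did not pass, and the wounded HFSC lineage stayed above unwounded EpdSC by 1.77 ± 0.32 (adjusted p 0.00335). In the 2 CL wounded EpdSC libraries, 8 of 8 myeloid and 8 of 8 fibroblast markers were higher than in EpdSC. The BK library had myeloid and fibroblast sums of 55.7 and 124.5 CPM, with 123.4 of the latter from Sparc. The part of such cells in the Irx4 rise was not tested.

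**Figure D3:**
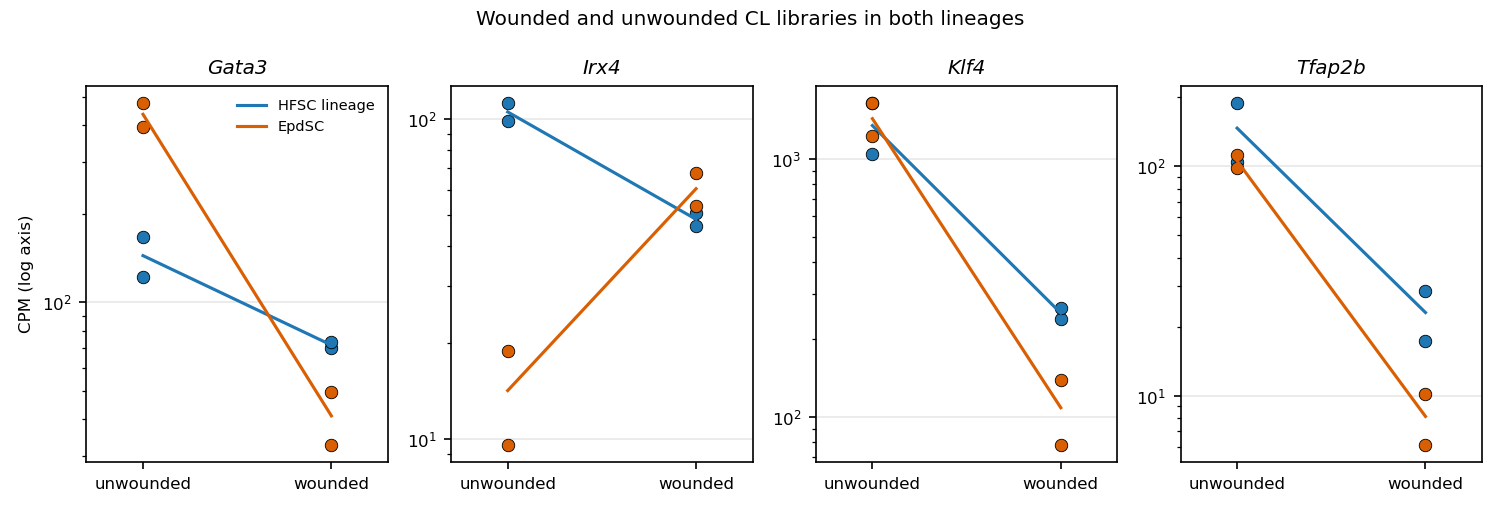
Levels of 4 genes in the 8 CL libraries on log axes, with 1 point per library and lines between group means for the HFSC lineage (blue) and EpdSC (orange). The Irx4 lines run in opposite directions to means of 48.5 and 60.5 CPM, and the Gata3 lines cross.

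In tumours Irx4 was at 3.04 and 3.27 CPM in HRas with high and low integrin, 0.679 and 1.16 in HRas TbrKO, and 12.5 and 4.30 in TbrKO. TbrKO libraries lay above all HRas-bearing ones, by 2.19 ± 0.47 (adjusted p 0.0187, up to 0.0786 without the HRas or HRas TbrKO library with high integrin). HRas-bearing tumours lay below the Tbr skin pair by -2.88 ± 0.88 (adjusted p 0.0267), although Tbr EpdSC at 3.45 was close to the HRas libraries. That call was lost without the Tbr HFSC library or either HRas TbrKO library and with high integrin tumours alone (up to 0.507).

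Dlx3 was scarce outside HFSC. HFSC had 17.1 and 19.6 CPM in BK, 4.53 and 8.16 in CL and 7.85 in Tbr, EpdSC had 0.754 to 2.33 and all other libraries 0.2665 to 2.58, the lowest from 5 counts. HFSC were above every other library. HFSC exceeded EpdSC 15.4-fold in BK (3.94 ± 0.43, adjusted p 0.00483) and 5.30-fold in CL (2.41 ± 0.54, adjusted p 0.0267, lost without CL HFSC B or either CL EpdSC library, up to 0.201). The wounded HFSC lineage was 3.56-fold below HFSC (-1.83 ± 0.51, adjusted p 0.0213, lost without CL HFSC B or either wounded library, up to 0.128), and the difference in EpdSC did not pass (-0.41 ± 0.56). HRas-bearing tumours were below the Tbr skin pair by -1.99 ± 0.52 (adjusted p 0.0146), a call lost without the Tbr HFSC library and with high integrin tumours alone (up to 0.183).

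**Figure D4:**
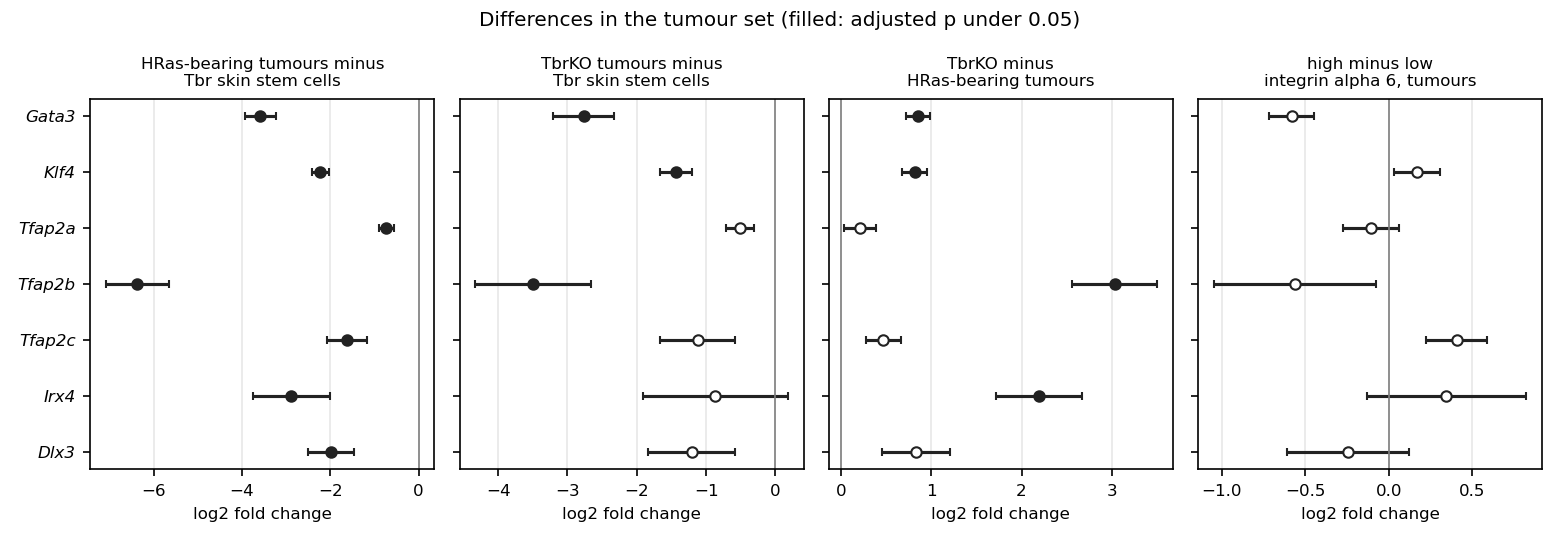
Log2 fold change with its standard error (bars) for the 7 genes in 4 comparisons of the tumour set, with filled points for an adjusted p below 0.05. All 7 points are filled and left of 0 for HRas-bearing tumours against Tbr skin stem cells, from -0.74 for Tfap2a to -6.37 for Tfap2b, and none is filled between the integrin gates.

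The relatives of the 7 genes were read from lists of whole families. Of the 5 AP-2 genes 4 reached 1 CPM in a group. Tfap2e, the fourth, had group means of 40.1 in CL HFSC and 46.9 in CL EpdSC, fell by 1.56 in the wounded HFSC lineage (adjusted p 0.00787) and by 1.28 in wounded EpdSC (adjusted p 0.0139), and was at 0.357 to 1.68 in tumours. All 4 AP-2 genes were lower in HRas-bearing tumours than in Tbr skin, with a median of -3.35, where 25.4% of all genes were lower. Of 6 Iroquois genes 5 were measured, and all 5 were higher in CL HFSC than in EpdSC (median 2.22, beside -0.02 over all genes) and 3 of 5 in BK. Of all genes 7.19% were higher in HFSC in CL and 7.91% in BK. Irx3 rose in wounded EpdSC as Irx4 did, by 1.40 (adjusted p 0.00481) to a mean of 53.5 CPM, whereas Irx1 fell by 1.54 there (adjusted p 0.00417). All 5 were higher in TbrKO than in HRas-bearing tumours, with a median of 1.38 beside -0.03 over all genes. Of all genes 21.2% were higher there.

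Among the KLF genes 15 of 17 were measured, and 10 of 15 fell in wounded EpdSC with none rising, where 28.2% of all genes fell and 30.2% rose (median -1.57, beside -0.04 over all genes). The largest falls were of Klf9 (-5.77, adjusted p 0.000606) and Klf11 (-4.25, adjusted p 4.41e-05). In the wounded HFSC lineage 7 fell and 2 rose, where 24.7% of all genes fell and 21.4% rose. There Klf2 went from a mean of 78.2 CPM (27.0 and 129.3 in CL HFSC A and B) to 0.0552, the latter from 1 and 2 counts. Klf5, a basal epidermal KLF, was lower in HFSC than in EpdSC (-1.61 in CL and -3.12 in BK, adjusted p 0.02 and 0.0068), and Klf15 was higher (3.00 and 3.82, adjusted p 0.00133 and 0.00666). Of the GATA genes 3 of 6 reached 1 CPM. Gata6 had 85.4 CPM in CL HFSC and 5.91 in CL EpdSC (3.85, adjusted p 0.000787), while BK HFSC had 3.38 and the BK difference did not pass (-0.57, adjusted p 0.434). Gata2 was between 0.403 and 3.6 CPM in tumours and below 1 CPM elsewhere. Of the Dlx genes 5 of 6 reached 1 CPM. Dlx5, which was not called between the lineages, rose in both wounds by 1.82 and 1.96 (adjusted p 0.0322 and 0.0212), opposite to the fall of Dlx3 in the HFSC lineage.

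Genes of AP-2 partners and of other epidermal regulators were read in the same way. Cited2, a coactivator that binds AP-2 proteins, was higher in HFSC (2.01 in CL and 2.96 in BK, adjusted p 0.00369 and 0.00421) and fell by 2.06 in the wounded HFSC lineage (adjusted p 0.000897). Cited4 rose by 1.47 and 2.93 in the 2 wounded lineages (adjusted p 0.0182 and 0.000859). Among 20 other regulators of the epidermis, 9 rose and 3 fell in the wounded HFSC lineage (median 0.76), where 21.4% of all genes rose and 24.7% fell. In wounded EpdSC 7 rose and 7 fell (median 0.10), near the 30.2% and 28.2% of all genes. In HRas-bearing tumours 3 were higher and 8 lower than in skin (median -0.64), where 27% of all genes were higher and 25.4% lower. Ovol1 rose by 2.09 in the HFSC lineage (adjusted p 0.00138), and Satb1 (-4.34, adjusted p 6.71e-05) and Hes1 (-3.24, adjusted p 3.73e-05) fell most in EpdSC. While Klf4 and Gata3 fell, 10 of 13 measured suprabasal and cornification genes rose and 1 fell in each wounded lineage, with medians of 2.84 and 2.16. Of all genes 21.4% rose in the HFSC lineage and 30.2% in EpdSC. Krt1 rose by 4.85 in the HFSC lineage (adjusted p 0.000212) and Tgm1 by 6.21 in EpdSC (adjusted p 2.89e-05).

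Across the 15 group means of log2(CPM + 1), Gata3 was most like Ago4, Lrp4 and Slco3a1 (Pearson r 0.979, 0.977 and 0.969 among 15238 genes). Klf4 was most like Phc3, Hspa1l and Ankrd16 (0.962, 0.962 and 0.961), and Tfap2a like D930015E06Rik and Gpr157 (0.89 and 0.88). For Tfap2b these were Zfp563, Cep83os and Gpr125 (0.974, 0.971 and 0.965), and for Tfap2c Slc16a9, Panx1 and Fam212b (0.935, 0.926 and 0.926). Irx4 was most like Fam132a, Efna2 and Irx3 (0.939, 0.905 and 0.89) and Dlx3 like Ebf4, Sema6c and Mn1 (0.963, 0.951 and 0.949). Lrp4, for example, had means of 786.5 CPM in CL EpdSC, 174 in CL HFSC, 42.8 in wounded EpdSC and 3.07 to 13.2 in tumours. Among the 7 genes themselves r was highest between Gata3 and Tfap2b (0.828) and lowest between Tfap2c and Dlx3 (-0.377). The points share sets and libraries, so these values only describe the pattern.

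Within 20 kb, each of the 7 genes had at least 1 peak in every list. In a window of 5 kb Dlx3 had 0 in EpdSC and tumour, and at a −log10 q of at least 5 Klf4 had 0 in EpdSC and Irx4 had 0 in tumour. The windows held 63 sites, of which 9 were in all 4 lists and 32 in 1 list only. Of these 32 sites, 19 were in the HFSC list, 6 in the wound, 5 in the tumour and 2 in the EpdSC list. The share of shared and single-list sites over all genes was not computed. Such counts, here and below, therefore do not set these genes apart. The HFSC list held 55435 peaks from 26825550 fragments, the EpdSC list 25742 from 13963471, the wound list 56865 from 11140895 and the tumour list 54201 from 29579794. Each population was 1 pooled sample, and lists of such different depth cannot show a gain or loss of a site. Over 21883 protein-coding genes the median number of peaks in such a window was 2 in HFSC, 1 in EpdSC, 3 in wound and 2 in tumour. Fold enrichments are the peak caller's own values.

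Tfap2a had the most sites shared by all populations, 4 of 11, and 10 peaks in HFSC, 5 in EpdSC, 6 in wound and 4 in tumour. Its start site peak, over the window printed above, had enrichments of 5.23, 3.56, 5.35 and 4.61. A site with its summit at -20005 bases from the start reached 15.2-fold in the wound list, which put it at percentile 99.7 of that list. Gata3 had 7, 3, 5 and 3 peaks in the same order, with sites at -1031 and -10777 bases from its start in all 4 lists. The peak over the printed Gata3 window was weak, at 2.07-fold in HFSC, 3.26 in wound and 3.12 in tumour.

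Tfap2b had 9 peaks in HFSC, 6 in EpdSC, 6 in wound and 1 in tumour. The single tumour peak had an enrichment of 6.66. It lay in a site with its closest summit, over all lists, at -6145 bases from the start, also called in HFSC (7.71) and EpdSC (7.63). Irx4 had 6, 2, 2 and 1. Of its 7 sites 5 were in the HFSC list alone, one of them over the printed promoter window at 1.96-fold, among the weakest peaks of that list (percentile 0.1). A site 18841 bases downstream was shared by EpdSC (5.19) and wound (9.25) and was not called in HFSC, and 1 site, 2729 bases downstream, was called in all 4 lists.

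Klf4 had 6, 1, 3 and 5 peaks and no site in all 4 lists. A site 17477 bases downstream of its start had 10.7-fold in HFSC, 10.1 in wound and 3.48 in tumour. Tfap2c had 6, 2, 4 and 7, the only one of the 7 with the most peaks in the tumour list. Dlx3 had 4, 1, 6 and 2 peaks in a window that also covers Dlx4, and 1 of its 7 sites was within the gene, in the wound list. The noncoding genes 4930412O13Rik and 9230102O04Rik overlap Gata3 and Gm26688 overlaps Tfap2a. The strand setting of the counting is not given in the sources used here, so reads of these pairs cannot be told apart. 4930412O13Rik followed Gata3, with 54.1 and 52.3 CPM in CL EpdSC and 3.04 and 4.10 in CL wounded EpdSC.

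**Figure D5:**
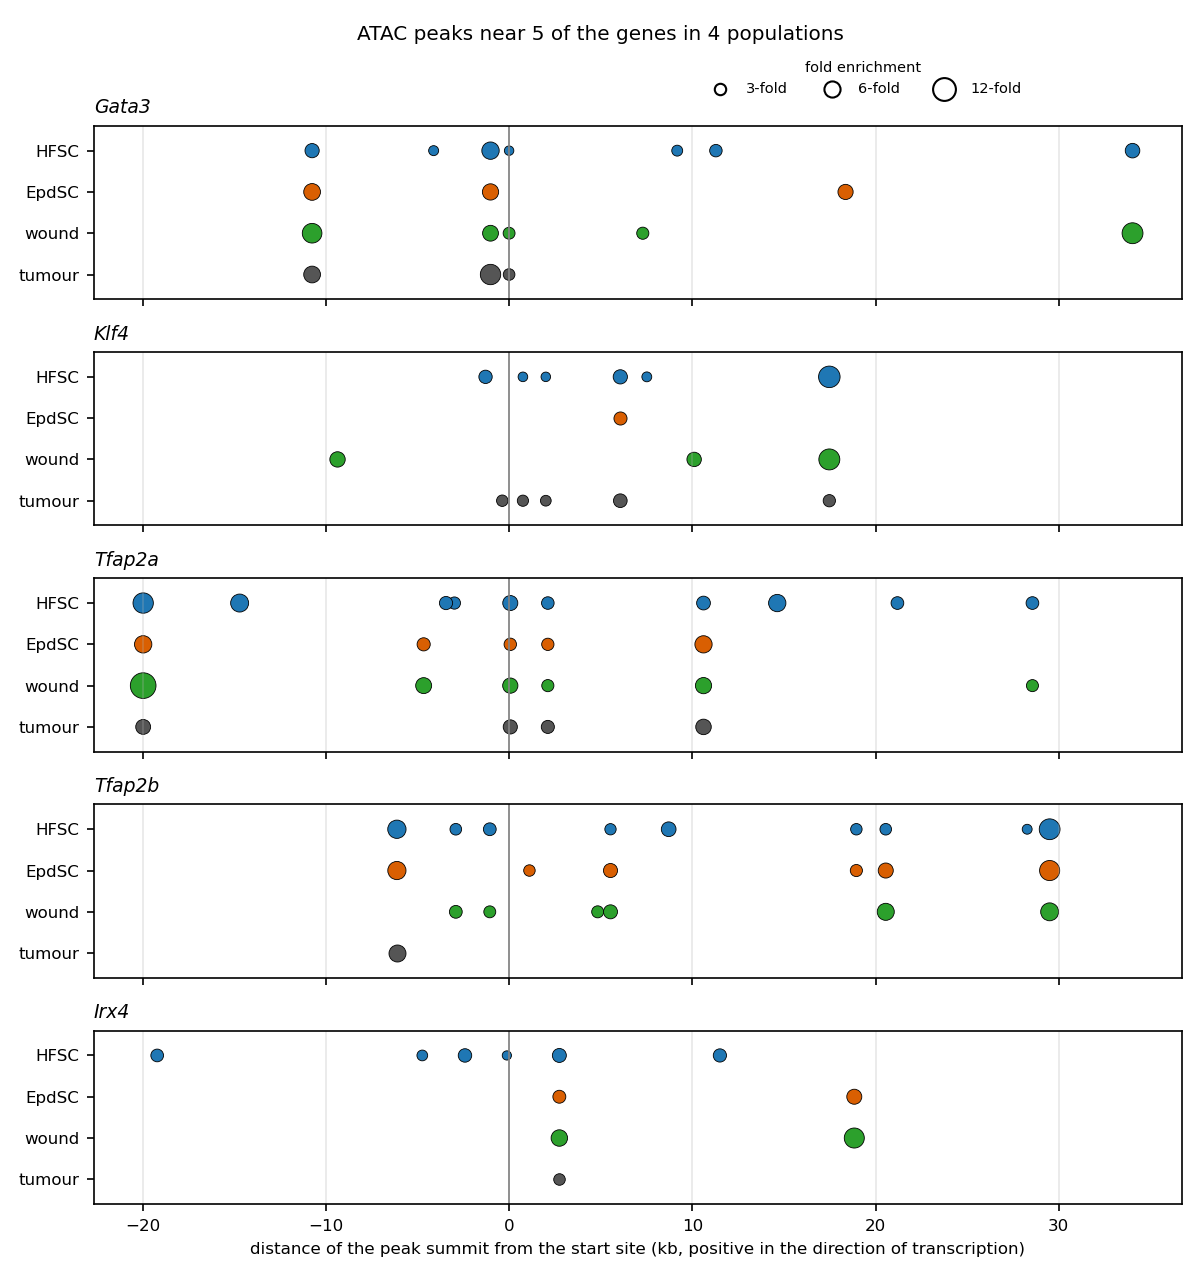
ATAC sites by distance from the nearest start site in kb, positive in the direction of transcription, for the 5 genes with a promoter entry. There is 1 row per population, with point area in proportion to fold enrichment. Each site is drawn at the same distance in every row, that of its summit closest to a start site in any population. Tfap2a shows 4 sites present in all rows, and Tfap2b shows 1 point in the tumour row.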

How the data were processed

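RNA was measured in 21 libraries, made with a total RNA kit and read from 1 end over 51 cycles, per the labels' protocols. The authors aligned reads with STAR to mm10, per the submitters' processing notes, and deposited a table of raw read counts per gene for all libraries. The counting program, its strand setting and the annotation are not given in the sources used here. For ATAC, the authors used Bowtie, Picard and MACS2 2.1.1.20160309, per the submitters' processing notes and the file headers. The deposited peak lists hold, per the file headers, each peak's pileup signal, fold enrichment and −log10 q, called on paired fragments with all duplicates kept, without a control and at q 0.05, 1 pooled list per population.

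From the counts, levels were computed as CPM with TMM scaling over all 21 libraries. Comparisons were fitted by set in R 4.3.3 with edgeR 4.0.16, which loads limma 3.58.1 (filterByExpr, glmQLFit and glmQLFTest). All p-values were adjusted by Benjamini-Hochberg over all genes tested. CL groups shared 1 fit, and the tumour gates were compared with genotype as a block. For tumours against skin, the gates were pooled within each tumour class. The Tbr HFSC and EpdSC libraries were pooled as skin, so the spread of that class holds the difference between the lineages. Log2 differences are given ± SE. Samples were grouped by their labels, all 21 columns were matched, and 0 were left over. The scripts were tested on simulated data. Library totals of 14216472 to 36425082 counts limit the precision of Dlx3, with 5 to 677 counts a library, and of Tfap2b and Irx4 in tumours.

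The 7 genes and all gene lists were chosen with earlier results of these data known. The text names all 7, relatives that reach 1 CPM in at least 1 of 15 groups, the 3 genes of highest Pearson r with each over the group means, and the largest called changes of each other list. Some genes that these rules select are not reported here. ATAC sites are peaks that overlap by at least 1 base across lists, within the gene and 20 kb on either side. The distance of a site is that of its summit closest to a start site, over all lists. Same-numbered libraries deviated together between the 2 wounded groups of CL (correlation 0.679) but not in every pair of groups (from -0.367 in CL, and -0.291 in BK), and no label ties the numbers, so they were not taken as pairs. Alternatives were DESeq2 1.42.0, RLE scaling, no filter, the replicate block, each library left out, other count tables and sample choices, and other ATAC windows and thresholds.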

Additional observations from a re-analysis of the deposited data

Results flagged for a closer look

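Gata3 and Irx4 responded differently to wounding in the 2 lineages of CL, by a test of the difference itself. For Gata3 the log2 change in the wounded HFSC lineage exceeded that in EpdSC by 2.39 (edgeR, adjusted p 0.00678), since Gata3 was 10.7-fold lower in wounded EpdSC and 2.03-fold lower in the HFSC lineage. The difference was 2.07 to 2.76 over the alternatives, with adjusted p no higher than 0.0424. For Irx4, the EpdSC rise with the BK libraries added and set as a block was 1.53 and did not pass (edgeR, adjusted p 0.0871). The Irx4 difference, fitted within CL alone, was -3.21 (adjusted p 0.00392), with a rise in EpdSC and a fall in the HFSC lineage. It was -3.75 to -2.78 over the alternatives, with adjusted p no higher than 0.0187.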

How the results depend on the processing

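Of 756 recalculations of single genes, 677 kept the side of the threshold, 54 lost the call and 25 gained it. Among the 677, 18 values that were not called changed sign, and 0 called values did. Of 62 recalculated counts that did not leave out a library, 54 stayed within 1.5 times and 8 moved. With the replicate block, the number of genes called between the wounded groups of CL was 1 in place of 2 (Tfap2b lost), and with the per-library count tables also 1 (Klf4 lost). The block left 3, 5, 4, 2 and 5 genes in CL HFSC against EpdSC, the 2 wound responses, their difference and BK, and 4 in place of 5 in the wounded HFSC lineage against EpdSC (Tfap2a lost). With crossed numbers in BK, chosen after seeing the data, 5 of the 7 and 3603 of all genes were called, against 2437 with the numbers as given. With set as a block over CL and BK, 5 genes differed between HFSC and EpdSC in place of 3. Between the tumour gates 1 gene was called with DESeq2 and 1 in the HRas-bearing libraries alone, in place of 0. With the high integrin tumours alone, chosen after seeing the data as was the HRas-bearing subset, 3 genes in place of 7 were called between HRas-bearing tumours and skin and 0 in place of 3 between TbrKO tumours and skin. A window of 50 kb gave 104 ATAC sites in place of 63. The cause of these moves was not tested.

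With each library left out, CL HFSC against EpdSC gave 1 to 3 genes, the wounded HFSC lineage against HFSC 2 to 4, wounded EpdSC against EpdSC 4, the difference of the responses 2 to 4, the wounded groups 0 to 4 and the wounded HFSC lineage against EpdSC 4. BK gave 3 to 7, the tumour gates 0 to 1, TbrKO against HRas-bearing tumours 2 to 6, HRas-bearing tumours against skin 5 to 7 and TbrKO tumours against skin 2 to 3. A lone library left in a group was assumed to vary like the others.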
